A study of Mus musculus with 4 samples.

Results

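The 10 genes described here encode nutrient transporters of the blood-brain barrier: Slc2a1 and Slc16a1 for sugar and monocarboxylates, Slco1a4, Slco1c1 and Slco2b1 for organic anions and thyroid hormone, Slc7a5, Slc3a2, Slc38a5 and Slc7a1 for amino acids, and Tfrc for iron. They were taken by gene name from the deposited count tables of an RNA sequencing study of mouse brain endothelial cells, and all 10 were listed at both stages, among 20194 genes listed at either. The study compared cells of UCP2f/f;Tie2-cre embryos, called knockout here, with cells of wild-type (WT) embryos, at embryonic day 18 (E18) and embryonic day 15 (E15), all on the C57BL/6 background. In the knockout a floxed Ucp2, the gene of a carrier protein of the inner mitochondrial membrane, meets a Cre recombinase driven by the Tie2 promoter, which is active in endothelium and also in most blood cells. Each of the 4 groups was 1 library here, so no group has a replicate. Whether the WT embryos carried the floxed allele, how the cells were isolated and how many embryos went into a library are not stated in the labels.

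Brain endothelial cells are sealed by tight junctions, so glucose, lactate, amino acids, thyroid hormone and iron reach the brain through carriers and receptors in their membranes. Solute carriers move these molecules down or against a gradient, whereas the transferrin receptor takes up iron bound to transferrin by endocytosis. Some of these genes are switched on as the barrier forms in the embryo.

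The libraries held 21992660 reads in listed genes for the E18 knockout, 19075407 for the E18 WT, 16328300 for the E15 knockout and 15542930 for the E15 WT. The targeted gene Ucp2 had 3296 reads in the E18 knockout, against 6696 in the E18 WT, and 2666 reads in the E15 knockout, against 4285 in the E15 WT. Levels are given as CPM, the reads of a gene per 1000000 reads in listed genes. Summed over 15 of 15 pan-endothelial markers they lay between 14160 and 15930 in the 4 libraries, and those of 13 further brain endothelial barrier genes between 9810 and 12160. Summed mural cell markers were 11750 CPM in the E18 knockout, 9423 CPM in the E18 WT, 4941 CPM in the E15 knockout and 7395 CPM in the E15 WT. Microglia and macrophage markers summed to 158 and 86.0 CPM in the E18 knockout and WT, and to 320.1 and 664 CPM in the E15 knockout and WT. Neuronal markers reached at most 129 CPM and choroid plexus markers at most 21.4 CPM in any library, while markers of radial glia and astrocytes lay between 757 and 976 CPM and those of fibroblasts and meninges between 149.5 and 314 CPM. The E18 knockout had 547 Xist reads and 0 reads of the Y-linked Ddx3y, whereas the E18 WT had 0 Xist reads and 5826 Ddx3y reads, so at E18 the genotypes also differ in sex-linked transcripts. Both E15 libraries held Xist reads, and Ddx3y was not among the genes listed there. Xist had 2549 reads in the E15 WT and 0 in the E18 WT. In the knockout Xist had 2109 reads (129 CPM) at E15 and 547 reads (24.9 CPM) at E18. Both stage pairs thus differ in sex-linked transcripts too. In such bulk libraries, fewer cells of a type and less RNA per cell cannot be told apart.

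Per kilobase of exon, Slc2a1 was the most abundant of the 10 genes in every library and Slco1a4 the least. Slc2a1 encodes GLUT1, the glucose carrier of the barrier, and had 2359 CPM per kilobase in the E18 knockout, 2617 in the E18 WT, 3128 in the E15 knockout and 3002 in the E15 WT. These levels placed it between rank 4 and rank 6 of all genes in each library, out of 17305 genes ranked at E18 and 18988 at E15. Slc3a2, the heavy chain that many amino acid carriers need to reach the membrane, followed with 619, 550.0, 646 and 536 CPM per kilobase in the same 4 libraries. Slc38a5 and Slco1c1 came next at 229 to 544 CPM per kilobase, in an order that turned between the stages: Slco1c1 was the higher at E18 and Slc38a5 at E15, where Tfrc at 231 reached the level of Slco1c1 in the WT. Slc7a5, Slc7a1, Slco2b1, Slc16a1 and Tfrc lay between 32.0 and 231 CPM per kilobase, and at E18 these 5 were close, within 124 to 225 in the knockout and 133 to 158 in the WT. With 1 library per group the spread around these neighbours in the order is not known. Slco1a4 stood apart at 4.49 CPM per kilobase in the E18 knockout, 2.40 in the E18 WT, 0.71 in the E15 knockout and 0.51 in the E15 WT.

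Together the 10 genes took 1.90% and 1.89% of the reads of the E18 knockout and WT, and 1.99% and 1.85% of those of the E15 knockout and WT. The sum was thus nearly the same everywhere, but its make-up was not. Slc2a1 gave 43.5% of the reads of the 10 genes in the E18 knockout and 48.6% in the E18 WT, against 55.1% in the E15 knockout and 57.0% in the E15 WT. Without Slc2a1 the other 9 genes took 1.07% and 0.972% of all reads in the E18 knockout and WT, and 0.894% and 0.794% in the E15 knockout and WT.

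**Figure D1:**
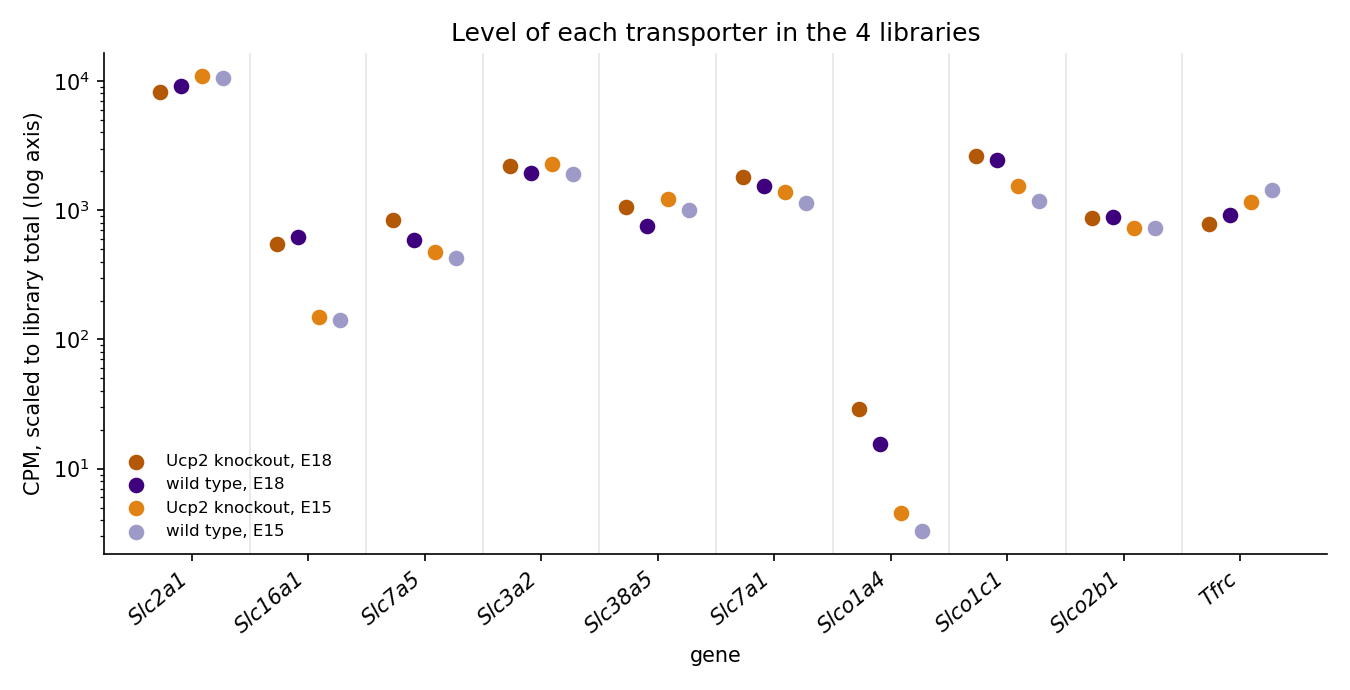
Level of each of the 10 transporters in each of the 4 libraries, in CPM on a log axis, with 1 point per library. Slc2a1 lies highest at 8272 to 10967 CPM, Slco1a4 lies lowest, and the E18 points of Slc16a1 and Slco1a4 lie clear of their E15 points.

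Between the stages, Slc16a1, Slco1a4 and Slco1c1 rose, and none of the other 7 genes passed the test. The test was edgeR's quasi-likelihood test of stage in an additive model of stage and genotype over the 4 libraries, with Benjamini-Hochberg adjustment over 13416 genes at a threshold of 0.05. It called 3 of the 10 genes higher at E18, where 0.395% of all genes tested were called higher, and 0 of the 10 lower, where 0.365% of all genes were called lower. The model has 1 residual degree of freedom and takes the stage difference as equal in both genotypes. Its p-values rest on departures from that in these 4 libraries and on information borrowed from other genes (5.66 prior degrees of freedom). They do not measure a spread between replicate libraries. In both genotypes the libraries of the stages also differ in sex-linked transcripts, which the model does not take into account. Without the filter on low counts the adjusted p-values of Slco1a4 and Slco1c1 were 0.0606 and 0.0605 and 1 of the 10, Slc16a1, passed. Without the genotype term both adjusted p-values were 0.101, and Slc16a1 was the 1 gene of all called higher. DESeq2 called 5 of the 10 higher, adding Slc7a5 and Slc7a1, and 1, Tfrc, lower.

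Slc16a1 encodes MCT1, the carrier of lactate, pyruvate and ketone bodies. It had 12096 reads (550.0 CPM) in the E18 knockout and 11760 reads (617 CPM) in the E18 WT, against 2434 reads (149 CPM) in the E15 knockout and 2204 reads (142 CPM) in the E15 WT. Both E18 libraries were well above both E15 libraries, while the genotypes lay close together at each stage. The E18 level was 3.69-fold the E15 level in the knockout, which is 1.88 on the log2 scale (95% counting interval 1.82 to 1.95), and 4.35-fold in the WT, which is 2.11 (2.05 to 2.19). Only 0.626% of genes had a higher E18 over E15 ratio in the knockout, and 0.256% in the WT. In the additive model the stage difference was 2.00 on the log2 scale (SE 0.14, adjusted p = 0.0198 by edgeR's quasi-likelihood test), and no other gene of the 13416 had a lower p-value.

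Slc2a1, set beside it, had 181930 reads (8272 CPM) in the E18 knockout and 175040 reads (9176 CPM) in the E18 WT, against 179070 reads (10967 CPM) in the E15 knockout and 163595 reads (10525 CPM) in the E15 WT. Both E18 libraries were lower than both E15 libraries, by −0.41 (−0.42 to −0.40) on the log2 scale in the knockout and −0.20 (−0.21 to −0.19) in the WT. With TMM and DESeq2 factors the WT ratio was −0.08 and −0.09, and the knockout ratio −0.29 and −0.28. The additive stage difference of −0.30 (SE 0.09), which was −0.18 with TMM and −0.19 with DESeq2, did not pass the test (adjusted p = 0.177, edgeR's quasi-likelihood test). The glucose carrier therefore exceeded the monocarboxylate carrier per kilobase by 19.0-fold in the E18 knockout and 18.8-fold in the E18 WT, against 92.9-fold in the E15 knockout and 93.7-fold in the E15 WT. Antisense Gm12868, with 43 to 190 reads per library, shares exon bases with Slc2a1, and whether reads were counted by strand is not stated in the labels. Bsg, the chaperone that carries MCT1 to the membrane, had 11794 and 10579 CPM in the E18 knockout and WT, against 8813 and 7142 CPM in the E15 knockout and WT. The ratio of Bsg to Slc16a1 per kilobase was accordingly 52.3 and 41.9 in the E18 knockout and WT, against 144 and 123 in the E15 knockout and WT.

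The organic anion carriers differed among themselves. Slco1a4, known as OATP1A4, carries bile acids, steroid conjugates and many drugs and is a marker of mature mouse brain endothelium. It had 633 reads (28.8 CPM) in the E18 knockout and 294 reads (15.4 CPM) in the E18 WT, against 74 reads (4.53 CPM) in the E15 knockout and 51 reads (3.28 CPM) in the E15 WT. The groups of each stage did not overlap, and the E18 level was 6.35-fold the E15 level in the knockout and 4.70-fold in the WT. On the scale of log2(CPM + 1) the ratios were 2.43 in the knockout and 1.94 in the WT, which understates so low a gene. Without the added 1 the counting intervals were 2.32 to 3.03 and 1.80 to 2.69. The additive stage difference was 2.45 (SE 0.33, adjusted p = 0.0383 by edgeR's quasi-likelihood test). Slco1a5, a near relative that could share reads with it, had at most 26 reads in any library.

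Slco1c1 encodes OATP1C1, which takes thyroxine into the brain. It had 58069 reads (2640.4 CPM) in the E18 knockout and 47053 reads (2467 CPM) in the E18 WT, against 25047 reads (1534 CPM) in the E15 knockout and 18437 reads (1186 CPM) in the E15 WT. Both E18 libraries were above both E15 libraries, with a log2 ratio of 0.78 (0.76 to 0.80) in the knockout and 1.06 (1.03 to 1.08) in the WT. The additive stage difference was 0.92 (SE 0.12, adjusted p = 0.0342 by edgeR's quasi-likelihood test). Slco2b1, known as OATP2B1 and a carrier of steroid sulphates, had 19057 reads (867 CPM) in the E18 knockout and 16790 reads (880.2 CPM) in the E18 WT, against 11936 reads (731 CPM) in the E15 knockout and 11303 reads (727 CPM) in the E15 WT. Its E18 over E15 ratios were 0.25 (0.21 to 0.28) in the knockout and 0.28 (0.24 to 0.31) in the WT, the knockout ratio being 0.37 with DESeq2 factors, and the additive difference of 0.26 (SE 0.11) did not pass (adjusted p = 0.315, edgeR's quasi-likelihood test). Antisense Gm15635 and Gm34280, each with at most 141 reads in a library, share exon bases with Slco2b1.

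The 3 genes that rose lie at chr3:104638668-104658462 on the plus strand (Slc16a1, ENSMUSG00000032902), chr6:141805440-141856199 on the minus strand (Slco1a4, ENSMUSG00000030237) and chr6:141524368-141570177 on the plus strand (Slco1c1, ENSMUSG00000030235), so both organic anion carriers come from the same stretch of chromosome 6. These positions are those of the deposited tables and equal those of GRCm38. The 250 bases before the start site of each gene, from RefSeq on GRCm38.p6, are shown because these 3 genes changed together with stage. They span chr3:104638414-104638663 (plus), chr6:141856221-141856470 (minus) and chr6:141524104-141524353 (plus), and are written 5′ to 3′ on the gene's strand. Capitals mark a CACGTG in the Slc16a1 window, in which the ACGTG core of the hypoxia response element matches on both strands, the matches overlapping.
Slc16a1: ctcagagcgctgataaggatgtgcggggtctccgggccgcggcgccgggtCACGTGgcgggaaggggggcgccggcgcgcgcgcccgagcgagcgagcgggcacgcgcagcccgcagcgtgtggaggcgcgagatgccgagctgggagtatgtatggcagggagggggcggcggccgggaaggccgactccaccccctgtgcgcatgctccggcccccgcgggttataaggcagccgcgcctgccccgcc
Slco1a4: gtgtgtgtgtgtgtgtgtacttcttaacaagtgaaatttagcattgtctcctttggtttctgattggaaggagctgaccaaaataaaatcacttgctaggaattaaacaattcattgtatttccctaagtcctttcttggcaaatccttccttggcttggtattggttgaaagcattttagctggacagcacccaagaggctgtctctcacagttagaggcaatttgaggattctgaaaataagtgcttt
Slco1c1: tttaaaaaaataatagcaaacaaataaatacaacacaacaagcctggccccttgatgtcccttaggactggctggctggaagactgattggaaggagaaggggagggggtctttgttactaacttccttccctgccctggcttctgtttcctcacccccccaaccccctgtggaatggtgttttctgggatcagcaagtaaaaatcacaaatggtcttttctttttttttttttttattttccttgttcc

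The windows differed in composition, with 76.4% G or C for Slc16a1, 39.2% for Slco1a4 and 42.8% for Slco1c1. On both strands ACGTG occurred in 16.6% of all 32841 windows of 250 bases, the TCF/LEF core CTTTGA in 13.8% and the amino acid response element TGATGNAA in 3.45%. The Slco1a4 and Slco1c1 windows held none of these letters, and the Slc16a1 window held ACGTG alone. Among the other transporters a Tfrc window, shortened to 48 bases, also held ACGTG. RefSeq windows were found by symbol for 9 of the 10 genes.

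**Figure D2:**
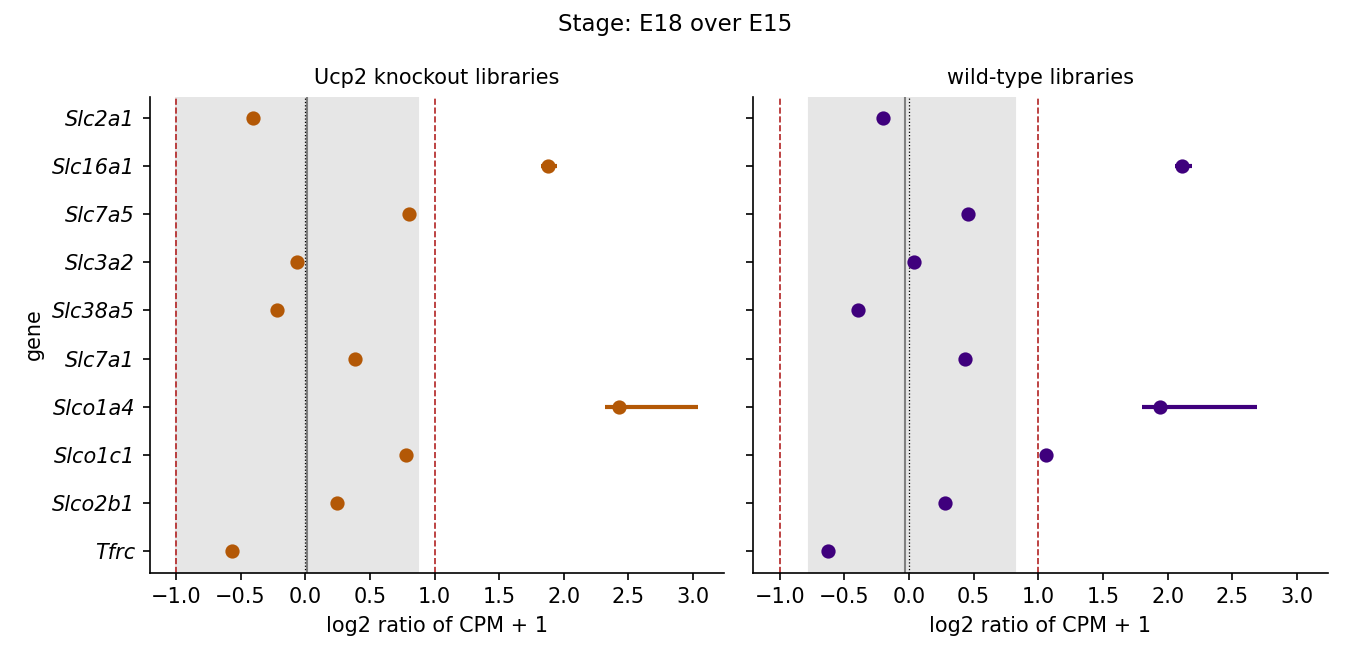
E18 over E15 log2 ratio of CPM + 1 for each of the 10 transporters in the knockout pair and in the WT pair, with bars for the 95% counting interval. The grey band holds the central 95% of genes averaging 100 CPM or more, the grey line is their median and the dashed red lines mark 2-fold. Slc16a1 lies above the band in both pairs, Slco1c1 above it in the WT pair, and Slco1a4, which is below 100 CPM and so outside the band's scope, is past 2-fold in both.

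The amino acid carriers did not move alike across the stages, and none of them passed the stage test. Slc7a5, or LAT1, exchanges large neutral amino acids and pairs with the heavy chain Slc3a2, or CD98hc. Slc7a5 had 18361 reads (835 CPM) in the E18 knockout and 11172 reads (586 CPM) in the E18 WT, against 7820 reads (479 CPM) in the E15 knockout and 6648 reads (428 CPM) in the E15 WT. Its E18 over E15 ratio was 0.80 (0.76 to 0.84) in the knockout and 0.45 (0.41 to 0.50) in the WT, with an additive difference of 0.63 (SE 0.14, adjusted p = 0.0874 by edgeR's quasi-likelihood test). Its heavy chain stayed close: Slc3a2 had 48025 reads (2184 CPM) in the E18 knockout and 37002 reads (1939.8 CPM) in the E18 WT, against 37209 reads (2279 CPM) in the E15 knockout and 29396 reads (1891 CPM) in the E15 WT. These libraries spanned 1.20-fold, the narrowest range among the 10 genes, and the additive difference was −0.01 (SE 0.10, adjusted p = 0.97 by edgeR's quasi-likelihood test), turning to 0.11 with TMM and 0.10 with DESeq2.

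The heavy chain thus exceeded its light chain per kilobase in every library, by 2.75-fold in the E18 knockout and 3.48-fold in the E18 WT, against 5.0-fold in the E15 knockout and 4.65-fold in the E15 WT. Other light chains that pair with Slc3a2 were lower than Slc7a5. Slc7a8, or LAT2, had 114 and 103 CPM per kilobase in the E18 knockout and WT, against 88.0 and 82.4 in the E15 knockout and WT. Slc7a7 lay between 25.9 and 32.7 CPM per kilobase, Slc7a6 between 9.57 and 16.4, and Slc7a11, the cystine carrier, at 0.19 or less.

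**Figure D3:**
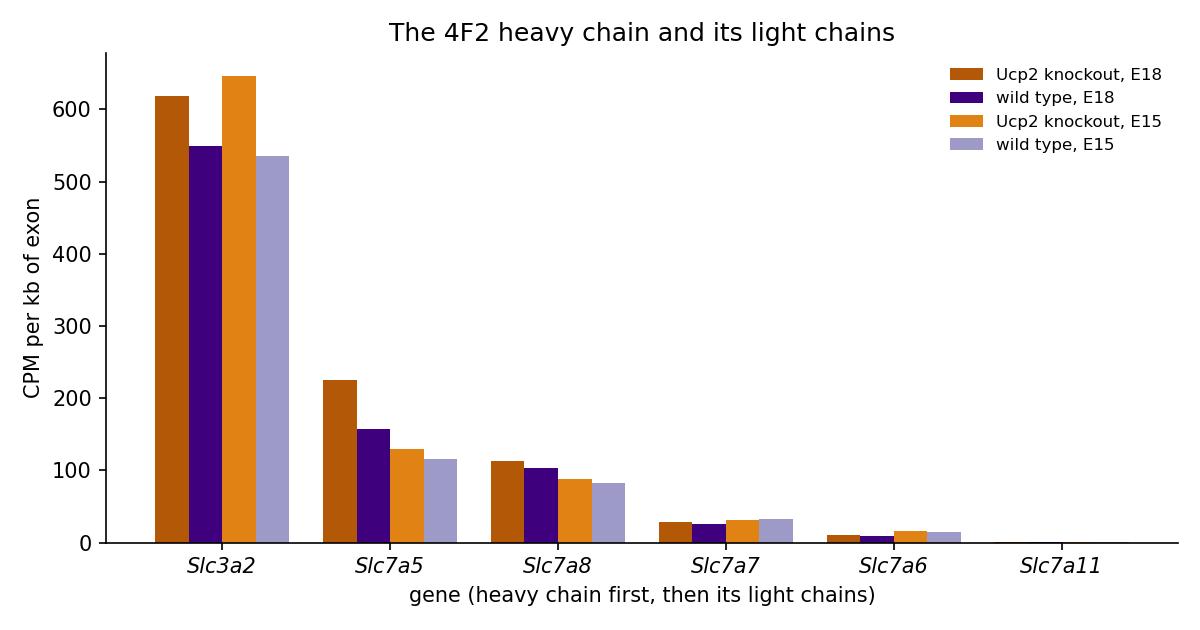
CPM per kilobase of exon of the heavy chain Slc3a2 and of 5 light chains that pair with it, with 1 bar per library. Slc3a2 is the highest in every library at 536 to 646, followed by Slc7a5 at 115 to 225 and Slc7a8 at 82.4 to 114.

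Slc38a5, or SNAT5, carries glutamine and other small neutral amino acids. It had 23090 reads (1049.9 CPM) in the E18 knockout and 14457 reads (758 CPM) in the E18 WT, against 19909 reads (1219 CPM) in the E15 knockout and 15486 reads (996 CPM) in the E15 WT. The E18 library was the lower within each genotype, with a log2 ratio of −0.22 (−0.24 to −0.19) in the knockout and −0.39 (−0.43 to −0.36) in the WT, but the stages overlapped, since the E18 knockout was above the E15 WT. The knockout ratio was −0.10 with TMM and −0.09 with DESeq2, and the additive stage difference was −0.19 and −0.20, against −0.31 with library totals. Slc7a1, or CAT1, brings in arginine and lysine. It had 39666 reads (1804 CPM) in the E18 knockout and 29274 reads (1535 CPM) in the E18 WT, against 22547 reads (1381 CPM) in the E15 knockout and 17680 reads (1137 CPM) in the E15 WT. Here both E18 libraries were above both E15 libraries, by 0.39 (0.36 to 0.41) in the knockout and 0.43 (0.41 to 0.46) in the WT. With library totals the additive stage differences were −0.31 (SE 0.12) for Slc38a5 and 0.41 (SE 0.11) for Slc7a1, with adjusted p-values of 0.249 and 0.121 by edgeR's quasi-likelihood test.

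Tfrc, the transferrin receptor, had 17243 reads (784 CPM) in the E18 knockout and 17648 reads (925 CPM) in the E18 WT, against 18942 reads (1160.1 CPM) in the E15 knockout and 22223 reads (1429.8 CPM) in the E15 WT. Both E18 libraries were below both E15 libraries, with a log2 ratio of −0.56 (−0.60 to −0.54) in the knockout and −0.63 (−0.66 to −0.60) in the WT. This was the largest difference below 0 among the 10 genes, and at −0.60 (SE 0.11, adjusted p = 0.0655 by edgeR's quasi-likelihood test) it did not pass. Tfrc is also abundant in red cell precursors, and summed erythroid markers were 744 and 950.1 CPM in the E18 knockout and WT, against 548 and 446 CPM in the E15 knockout and WT. These sums were thus the higher at E18, where Tfrc was the lower. The sums cover 14 of 16 listed markers at E18 and 12 of 16 at E15, and 1 marker was at 0 in the E18 knockout.

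Set beside all genes, the median ratio of the 10 transporters lay somewhat high between the stages. In the knockout 2 of 10, Slc16a1 and Slco1a4, were at least 2-fold higher at E18, where 4.34% of 12465 genes were, and 0 of 10 were 2-fold lower, where 10.9% of genes were. In the WT the same 2 genes and Slco1c1 were at least 2-fold higher, where 3.08% of 12515 genes were, and 0 of 10 were 2-fold lower, where 7.58% of genes were. Of genes averaging 100 CPM or more, as all of the 10 but Slco1a4 did, 1.71% were 2-fold higher in the knockout and 1.66% in the WT. Few genes at these levels were 2-fold lower either, 2.55% in the knockout and 1.06% in the WT. At 1.5-fold, 4 of the 10 were higher in the knockout (10.6% of all genes) and 0 were lower (21.5%), while 3 were higher (8.49%) and 1, Tfrc, was lower (17.9%) in the WT. Among genes averaging 100 CPM or more, 5.51% were 1.5-fold higher and 6.66% lower in the knockout. In the WT these shares were 5.55% and 4.76%. The median log2 ratio of the 10 genes was 0.32 in the knockout, against −0.10 over all genes, and 0.35 in the WT, against −0.11 over all genes. Over genes averaging 100 CPM or more the medians were 0.015 in the knockout and −0.03 in the WT. Among the 10, 6 ratios were above 0 in the knockout and 7 in the WT, with Slc3a2 turning from −0.06 (−0.08 to −0.04) in the knockout pair to 0.04 (0.01 to 0.06) in the WT pair. With TMM or DESeq2 size factors the median of all genes moved by 0.11 to 0.12 in either genotype, and the Slc3a2 ratio in the knockout became 0.05 with TMM and 0.06 with DESeq2. The sums of mural markers, made up mostly of Rgs5, were also higher in both E18 libraries than in either E15 library. Of 11 mural markers measured, 10 had an E18 over E15 ratio above 0 in each genotype. The pan-endothelial sums were 15450 and 15930 CPM in the E18 knockout and WT, against 15160 and 14160 CPM in the E15 knockout and WT. Of the radial glia and astrocyte markers, 3 of 6 measured were 2-fold higher at E18 in the knockout pair (median 1.06) and 4 of 7 in the WT pair (median 1.44), although their sums, made up mostly of Gja1 and Nes, were 757 and 774 CPM in the E18 knockout and WT, against 976 and 758 CPM in the E15 knockout and WT. Among them Fabp7 had 396 and 463 reads in the E18 knockout and WT, against 78 and 129 in the E15 knockout and WT. The part of these cell types in the results was not tested.

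**Figure D4:**
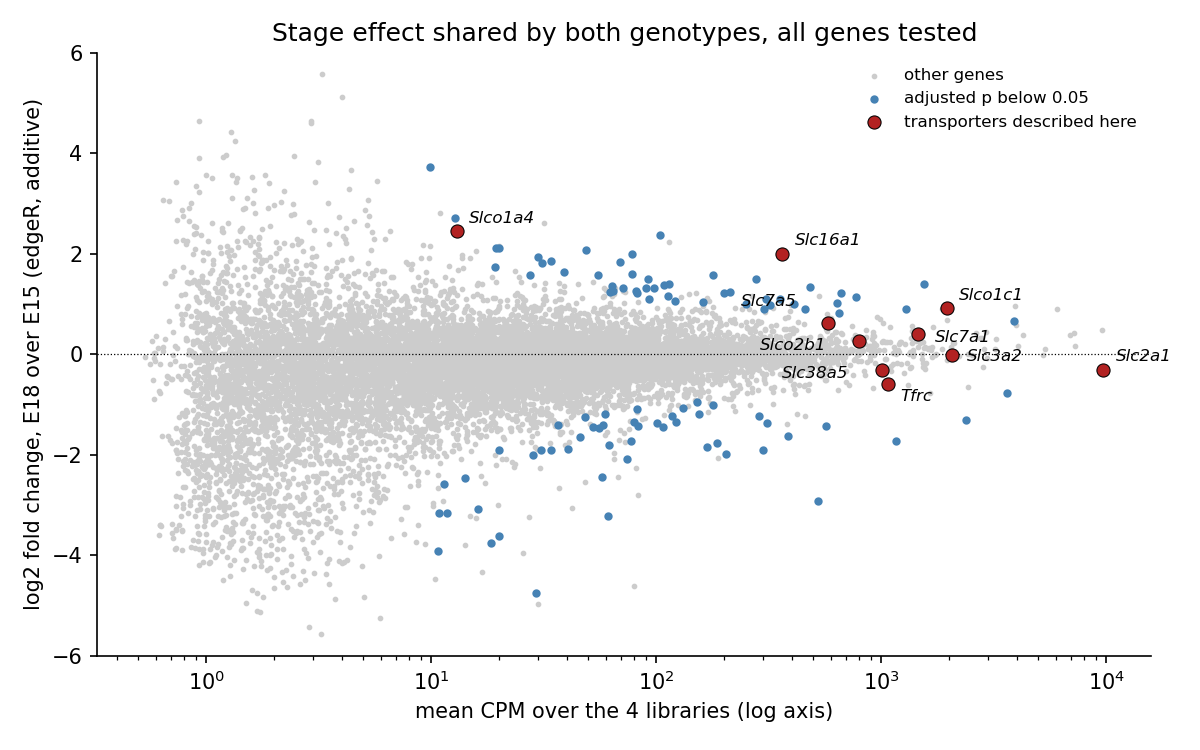
Additive stage difference (log2, E18 over E15) of every tested gene against its mean level in CPM on a log axis, with the 10 transporters in red and other genes called at an adjusted p under 0.05 in blue. Slc16a1 at 2.00, Slco1a4 at 2.45 and Slco1c1 at 0.92 lie in the upper part of the cloud at their levels, and Tfrc at −0.60 lies below 0.

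Between the genotypes, 0 of the 10 transporters were 2-fold apart at either stage, where 6.8% of 12349 genes were at E18 and 6.87% of 12633 genes at E15. Of genes averaging 100 CPM or more, 0.376% were 2-fold apart at E18 and 1.68% at E15. The median log2 ratio of knockout over WT was 0.13 for the 10 genes at E18, against 0.00 over all genes, and 0.22 at E15, against −0.01 over all genes. The ratio was above 0 for 6 of the 10 genes at E18 and for 9 of the 10 at E15. In the additive model 0 of the 10 genes passed for genotype (edgeR's quasi-likelihood test, adjusted p of 0.925 or more), as did 0 of all 13416 genes. At an unadjusted p under 0.05 there were 672 genes, or 5.01% of all, and they included 4 of the 10 transporters. With edgeR's TMM factors 3 genes passed, and DESeq2 called 35 genes higher and 9 lower, none of them among the 10.

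The amino acid carriers were the group in which all members had the higher level in the knockout at both stages. At E18 their knockout over WT log2 ratios were 0.51 (0.48 to 0.55) for Slc7a5, 0.47 (0.44 to 0.50) for Slc38a5, 0.23 (0.21 to 0.25) for Slc7a1 and 0.17 (0.15 to 0.19) for Slc3a2. At E15 they were 0.16 (0.12 to 0.21) for Slc7a5, 0.29 (0.26 to 0.32) for Slc38a5, 0.28 (0.25 to 0.31) for Slc7a1 and 0.27 (0.25 to 0.29) for Slc3a2. All of these intervals lay above 0, but they cover counting error only and not the spread between embryos. The 13 other brain endothelial barrier genes had a median knockout over WT ratio of 0.26 at E15, with 10 of 13 above 0, beside a median of 0.27 for the amino acid carriers. At E18 their median was −0.06, with 5 of 13 above 0, beside 0.35 for the amino acid carriers. Among genes averaging 100 CPM or more, 2.02% had a higher ratio at E18 than Slc7a5 and 2.73% a higher one than Slc38a5. The additive genotype difference was 0.38 for Slc38a5 (SE 0.12, adjusted p = 0.925 by edgeR's quasi-likelihood test), which had the lowest adjusted p of the 10 genes.

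Slc38a5 is X-linked (chrX:8271133-8280179, plus strand, ENSMUSG00000031170), and the E18 libraries differ in sex-linked transcripts. The 423 X-linked genes tested at E18 had a median knockout over WT ratio of 0.02, and 13.2% of them had a higher ratio than Slc38a5. At E15, where Xist was read in both libraries, the median of 426 X-linked genes was −0.05, and 14.6% lay above Slc38a5. At E18 genotype and embryo sex, as these transcripts show it, cannot be told apart in these libraries. Stage and embryo sex cannot be told apart in the WT stage pair either. There 425 X-linked genes had a median E18 over E15 ratio of −0.10, and 71.1% lay above Slc38a5.

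Tfrc was the gene with the lower level in the knockout at both stages, with a knockout over WT ratio of −0.24 (−0.27 to −0.21) at E18 and −0.30 (−0.33 to −0.27) at E15. Slco1a4 had the highest E18 ratio at 0.86, from 633 knockout and 294 WT reads (interval 0.70 to 1.11). It was the 1 transporter past 1.5-fold there, where 8.59% of all genes were 1.5-fold higher. At E15 its ratio of 0.37 rested on 74 and 51 reads, with an interval of −0.07 to 1.01 that includes 0. Slco1c1 had ratios of 0.10 (0.08 to 0.12) at E18 and 0.37 (0.34 to 0.40) at E15.

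Slc2a1, Slc16a1 and Slco2b1 had small knockout over WT ratios of opposite sign at the stages. Slc2a1 had −0.15 (−0.16 to −0.14) at E18 and 0.06 (0.05 to 0.07) at E15. Slc16a1 had −0.16 (−0.20 to −0.13) at E18 and 0.07 (−0.01 to 0.16) at E15. Slco2b1 had −0.02 (−0.05 to 0.01) at E18 and 0.0075 (−0.03 to 0.04) at E15. The difference between the stages in the knockout over WT ratio was −0.21 for Slc2a1, −0.24 for Slc16a1 and −0.03 for Slco2b1. In size these were exceeded by 47.4%, 42.4% and 92.2% of the 2154 genes with at least 100 CPM. The transporter above 100 CPM with the largest such difference was Slc7a5 at 0.35 (0.29 to 0.41), exceeded in size by 23.6% of those genes.

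**Figure D5:**
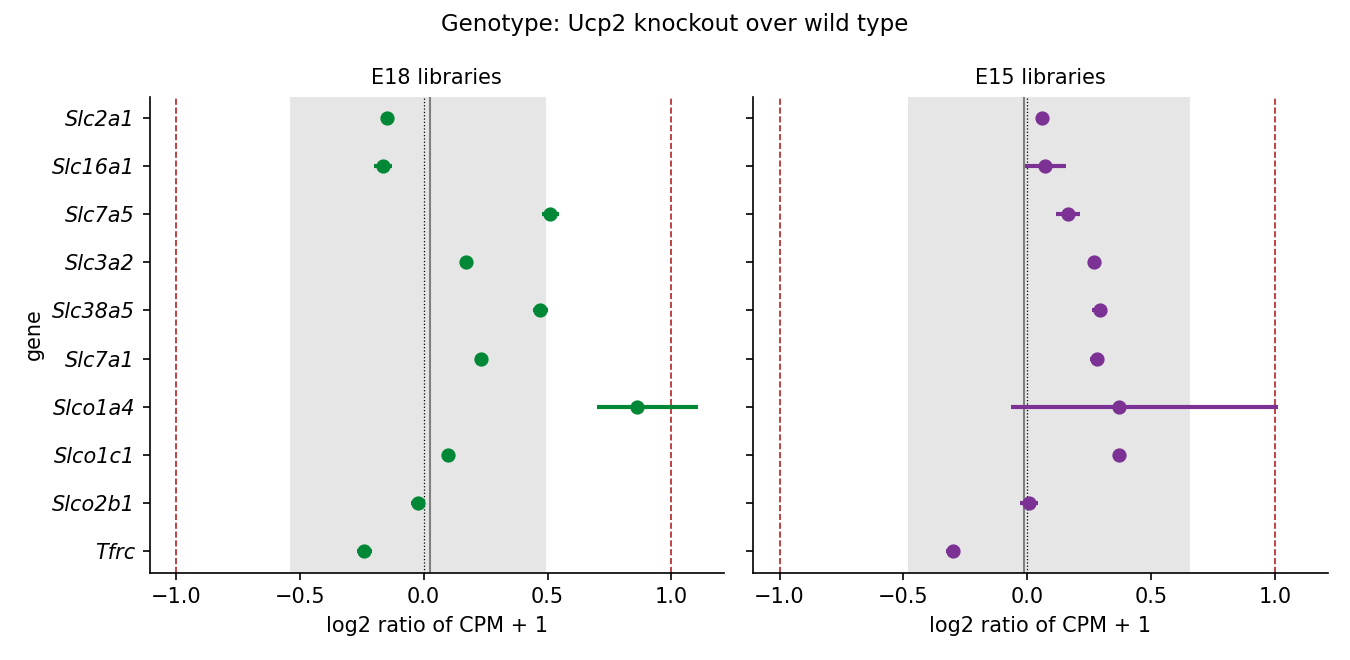
Knockout over WT log2 ratio of CPM + 1 for each of the 10 transporters, at E18 (left panel) and E15 (right panel), with bars for the 95% counting interval. The grey band holds the central 95% of genes with at least 100 CPM, the grey line is their median and the dashed red lines mark 2-fold. No transporter reaches 2-fold at either stage, and Slc7a5 at 0.51 lies just above the band at E18, which ends at 0.49. Slco1a4, below 100 CPM and so outside the band's scope, lies highest at E18 at 0.86. The amino acid carriers lie above 0 in both panels and Tfrc lies below 0 in both.

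Other carriers of the same substrates were described from lists of genes for each substrate. Over all genes tested, 4.34% were 2-fold higher and 10.9% 2-fold lower at E18 in the knockout. In the WT these shares were 3.08% and 7.58%. Between the genotypes, 6.8% of all genes were 2-fold apart at E18 and 6.87% at E15. Of 22 other sugar and monocarboxylate carriers, 0 of 14 measured were 2-fold higher and 1 was 2-fold lower at E18 than at E15 in the knockout, and 0 of 14 in either direction in the WT. Their median E18 over E15 ratio was 0.32 in the knockout and −0.11 in the WT, and 0 passed the additive stage test. In the knockout over WT comparison 1 was 2-fold higher and 1 lower of 14 at E18, with a median of 0.18, and 2 were higher and 0 lower of 15 at E15, with a median of −0.07. Between the genotypes the list held Slc16a9, a member of the monocarboxylate carrier family, which was more than 2-fold higher in the knockout at both stages. It had 570 reads in the E18 knockout, against 200 in the E18 WT (log2 ratio 1.23), and 342 reads in the E15 knockout, against 151 in the E15 WT (log2 ratio 1.03). Its additive genotype difference of 1.21 did not pass the test (adjusted p = 0.86, edgeR's quasi-likelihood test).

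Of 34 other amino acid carriers, 25 were measured between the stages. In the knockout 4 were 2-fold higher (4.34% of all genes) and 4 were 2-fold lower (10.9%) at E18 than at E15. In the WT 3 were higher (3.08% of all genes) and 2 lower (7.58%). The medians of the list were 0.08 in the knockout and −0.06 in the WT. Between the genotypes, 24 were measured at each stage. At E18, 1 was 2-fold higher and 1 lower in the knockout (median 0.14), where 6.8% of all genes were 2-fold apart. At E15, 1 was higher and 2 lower (median −0.02), where 6.87% of all genes were 2-fold apart. Slc38a1, a glutamine carrier related to Slc38a5, fell at E18. It had 622 reads in the E18 knockout and 551 in the E18 WT, against 1083 in the E15 knockout and 1085 in the E15 WT, and its additive stage difference was −1.25 (adjusted p = 0.0479, edgeR's quasi-likelihood test). It was 1 of 26 genes of the list that entered the additive model, and 0 of them were called higher. Without the genotype term in the model, 0 genes of all were called lower. Slc1a4, a carrier of serine and alanine, was the most abundant of the list at 2931 and 3014 CPM in the E18 knockout and WT and 2779 and 2705 CPM in the E15 knockout and WT.

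Of 18 other organic anion and thyroid hormone carriers, Slco2a1, the prostaglandin carrier, was called higher in the WT stage pair. It had 11252 reads in the E18 WT, against 3650 in the E15 WT (log2 ratio 1.33), and 9511 reads in the E18 knockout, against 5288 in the E15 knockout (0.42). The genes called lower at E18 were Slco3a1 in the WT pair, with 33 reads in the E18 WT against 106 in the E15 WT, and Slc10a1 in the knockout pair, with 10 reads in the E18 knockout against 56 in the E15 knockout. No gene of the list was called higher in the knockout pair. Over all genes, 4.34% were called higher and 10.9% lower in the knockout pair, and 3.08% and 7.58% in the WT pair. Slc22a8, or OAT3, a carrier of organic anions, had 1171 and 1217 CPM in the E18 knockout and WT, against 806 and 639.6 CPM in the E15 knockout and WT. Medians of the list were 0.19 in the knockout (9 measured) and −0.04 in the WT (8 measured). No gene of it passed the additive stage test. Its knockout over WT medians were −0.04 at E18 and 0.10 at E15, with 1 and 0 of 8 measured genes 2-fold lower and 0 higher. Of all genes, 6.8% were 2-fold apart at E18 and 6.87% at E15.

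Of 28 other genes of iron uptake, storage and export, 19 were measured between the stages. At E18, 1 was 2-fold higher in each genotype (4.34% of all genes in the knockout, 3.08% in the WT). In each genotype 0 were 2-fold lower (10.9% of all genes in the knockout, 7.58% in the WT). The medians were 0.12 in the knockout and 0.08 in the WT, and 0 passed the additive stage test. Ferritin heavy chain Fth1, which stores iron, had 5161 and 4314 CPM in the E18 knockout and WT, against 3673 and 2686 CPM in the E15 knockout and WT. Fth1 was thus higher at E18, where Tfrc was lower. Ferritin light chain Ftl1 went the other way and was lower at E18, like Tfrc. Ftl1 had 484 and 411 CPM in the E18 knockout and WT, against 594 and 494 CPM in the E15 knockout and WT. Cp, the ferroxidase ceruloplasmin, was 2-fold lower in the E18 knockout, with 117 reads against 323 in the E18 WT. It was the 1 gene of the list called between the genotypes, where the medians were 0.11 at E18 and 0.10 at E15. Of all genes, 6.8% were 2-fold apart between the genotypes at E18 and 6.87% at E15.

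The genes whose pattern over the 4 libraries was most like that of Slc16a1 were Usp18, Mmd2 and Peg13, among 10025 genes averaging 5 CPM or more. The root mean square difference of their centred log2(CPM + 1) values from those of Slc16a1 was 0.0216, 0.0851 and 0.12, where Slc16a1 itself spanned 2.11. Usp18 had 29.2 and 33.97 CPM in the E18 knockout and WT, against 7.53 and 7.01 CPM in the E15 knockout and WT. Nearest to Slco1a4, which spanned 2.80, were Sf3a2 at 0.253, Clic5 at 0.273 and Gm694 at 0.298. Likeness over 4 libraries is a description of these libraries alone.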

How the data were processed

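RNA of mouse brain endothelial cells was sequenced on an Illumina HiSeq instrument. Bowtie2 2.2.3, TopHat2 2.0.12, HTSeq 0.6.0 and the genome build mm9 are named in the submitters' processing notes, but gene positions in the deposited tables are those of GENCODE M21 on GRCm38 for 18140 of 20143 gene identifiers found there, all 10 transporters included. The authors deposited raw read counts per gene and library, used for all results, and CPM values, used as a check. The design text speaks of triplicates; 4 libraries, 1 per group, were analysed here.

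The 10 genes and all gene and marker lists were chosen with earlier results of these data known. Other genes were named where they were 2-fold apart or the most abundant of a list, at most 3 and 2 per list. Slc38a1 and Ftl1 were named outside this rule after their values were seen. The light chains of Slc3a2 and Slco1a5 were named for their relation to the 10 genes. Counts were scaled to library totals in Python 3.11.15. Ratios are log2 of CPM + 1 over genes that reached 1 CPM in either library compared and 50 reads over the pair, called at 2-fold. Exact Clopper-Pearson 95% intervals of the count ratio, without the added 1, cover counting error only. Stage ratios join 2 tables that list different genes, 17344 at E18 and 19031 at E15. An additive model of stage and genotype was fitted with edgeR 4.0.16 (quasi-likelihood, library totals, at least 1 CPM in 2 libraries), and SEs come from its F statistic. Both procedures were run on simulated counts with less spread than these data. The ratios were simulated with counting error only, and the additive model at a dispersion below the 0.11 estimated here. These runs therefore do not show how the calls behave under the spread between embryos. Reads outside listed genes were at most 0.0195% of a library. Alternatives were other pseudocounts, filters, thresholds and size factors, DESeq2 1.42.0, and the model without its other term. Some results of the gene lists are not reported here.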

Additional observations from a re-analysis of the deposited data

Results flagged for a closer look

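For 3 of the 10 transporters the knockout over WT log2 ratio had opposite signs at the stages, with 1 library per group. Slc2a1 had −0.15 at E18 and 0.059 at E15. Slc16a1 had −0.16 at E18 and 0.072 at E15. Slco2b1 had −0.023 at E18 and 0.0075 at E15. The differences between the stages were not tested, since no group has a replicate, and the E18 libraries also differ in sex-linked transcripts.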

How the results depend on the processing

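The higher stage level of Slc16a1 passed under every alternative of the additive model, at adjusted p-values of up to 0.0389 in edgeR, while Slco1a4 and Slco1c1 did not pass without the low-count filter (0.0606 and 0.0605) or without the genotype term (0.101 each). Accordingly 1 transporter was called higher in either case, and 5 with DESeq2, which added Slc7a5 and Slc7a1 and called 1, Tfrc, lower. Over all genes the additive stage test called 53 higher and 49 lower. It called 122 higher and 58 lower with TMM, 356 and 360 with DESeq2, 19 and 22 without the filter, and 1 and 0 without the genotype term, which leaves the knockout and WT difference in the spread. The additive genotype test called 3 higher with TMM, and 35 higher and 9 lower with DESeq2. Between pairs of libraries, counts of 2-fold genes depended on the pseudocount. With 5 CPM added, 42 genes were higher and 82 lower in the E18 knockout, 163 and 75 in the E15 knockout, 178 and 601 at E18 in the knockout stage pair, and 143 and 286 in the WT stage pair. Main counts in that order were 356 and 484, 448 and 420, 541 and 1363, and 386 and 949. Without the filter, 567 genes were higher and 876 lower in the E18 knockout, and 756 were lower in the E15 knockout. With a filter at 5 CPM these were 211 and 275, and 266. At 1.5-fold they were 1061 higher and 1326 lower in the E18 knockout, 1173 and 1202 in the E15 knockout, 1319 and 2685 in the knockout stage pair, and 1063 and 2246 in the WT stage pair. Of the transporters, 1 was then higher in the E18 knockout, 4 were higher in the knockout stage pair, and 1 was lower in the WT stage pair. Among the transporters' values, those that changed sign were the Slc3a2 stage ratio in the knockout, given above, and the Slc3a2 additive stage difference, which was −0.01 with library totals, 0.11 with TMM and 0.10 with DESeq2. No paired analysis was possible because each group holds 1 library and no pairing of libraries is stated in the labels. With 1 library per group, no library could be left out with a test either. Depth limits Slco1a4, which had 51 reads in the E15 WT.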

Other observations

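Of the carriers and receptors of vitamins, nucleosides, choline and lipids, 1 of 26 measured was 2-fold higher and 3 were 2-fold lower at E18 in the knockout stage pair (median −0.16), where 4.34% and 10.9% of all genes were. In the WT stage pair 0 of 25 were 2-fold apart (median 0.04), where 3.08% of all genes were higher and 7.58% lower. Mfsd2a, the carrier of lysophospholipids with omega-3 chains at the barrier, had 2120.0 and 2178 CPM in the E18 knockout and WT, and 1774 and 2112 CPM in the E15 knockout and WT. Lrp1, a lipoprotein receptor, was 2-fold lower in the E15 knockout, with 663 reads against 1376 in the E15 WT, but had 1387 reads in the E18 knockout, against 1166 in the E18 WT. The median knockout over WT ratio of the list was −0.04 at E18 and 0.09 at E15.

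Targets of the amino acid response, the ATF4 programme that switches on carriers and synthesis enzymes when amino acids run short, were measured for 22 of 22 genes at E18. The median knockout over WT ratio was 0.12 at E18 and −0.14 at E15. Of the 22, 1 was 2-fold higher in the E18 knockout, where 2.88% of all genes were. That gene was Mthfd2, an enzyme of mitochondrial folate metabolism, with 299 reads in the E18 knockout, against 108 in the E18 WT. Between the stages 2 of 21 were 2-fold higher (4.34% of all genes) and 1 lower (10.9%) at E18 in the knockout (median 0.20). In the WT 2 of 21 were higher (3.08% of all genes) and 0 lower (7.58%), with a median of −0.13. None of the 22 passed the additive test for stage or genotype.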
